A study of Manihot esculenta with 44 samples.

Results

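The gene described here is MANES_15G033100, the cassava gene whose best Arabidopsis match is ELIP1, an early light-induced protein. It was picked by its identifier in 11 deposited expression tables and is 1 gene of 34120. It was chosen because earlier results of the same data had shown its site and date differences, so its own levels are given as a description with no test. The deposited annotation gives it 1 transcript, the Pfam chlorophyll a/b-binding domain (PF00504) and the description of a chlorophyll a/b-binding family protein. It was the only gene with ELIP1 as best match, and 0 genes had ELIP2, the second Arabidopsis member, as best match.

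Early light-induced proteins are nuclear-encoded proteins of the thylakoid membrane and belong to the extended family of light-harvesting proteins. Unlike the antenna proteins, which collect light, they accumulate for short periods during greening, in light stress and in cold under light, and they are thought to bind freed chlorophyll and xanthophylls and so to limit photo-oxidative damage. In Arabidopsis, ELIP transcription depends on the transcription factor HY5 downstream of the blue light receptor CRY1 and the UV-B receptor UVR8.

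Leaf RNA came from KU50, a cassava variety common in Southeast Asia, planted as stem cuttings 30 to 40 cm long in a field in Hanoi and a field in Bac Kan, Vietnam, in 2019. Plants flowered in the mountainous Bac Kan field and did not flower in Hanoi, a general field. Each date had 4 libraries. Hanoi was sampled on 24 May, 13 July, 7 August and 10 October (16 libraries), and Bac Kan on 31 May, 29 June, 26 July, 15 August, 11 September, 5 October and 30 October (28 libraries). All plants were of 1 variety and each site was 1 field, so field, climate, altitude and flowering cannot be told apart. Whether the 4 libraries of 1 date are from different plants is not stated in the labels, so p-values measure only the spread between these libraries. The characteristics in the labels gave another date for 40 samples and another site for 16, and the titles and descriptions were followed.

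Levels are deposited FPKM (fragments normalized for transcript length and library size), rescaled to a total of 1000000 per library. Relative depth, read from the spacing of low values, ran from 0.738 to 1.56 times the median library. In the 18 libraries where that spacing could be tied to this gene, its values were whole multiples of 1 step within 1.74e-08, which gives fragment counts of at least 111 to 2911. Over all 44 libraries the estimates ran from 111 to 6009, with those outside the 18 less certain. As the counts are lower bounds, counting alone would give a coefficient of variation of at most about 1.29% to 9.49%, depending on the library. The coefficient of variation between libraries of a date was 9.89% to 60.8%. Leaf photosynthesis markers (7 genes, among them the Rubisco small subunit) summed to between 8678 and 20710 per library, while floral organ markers summed to between 2.298 and 68.6 (16 genes, 3 at 0 throughout), dividing tissue markers to between 0.595 and 35.9 (14 genes, 4 at 0 throughout) and secondary wall markers to between 0.356 and 24.7 (23 genes).

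The ELIP1 homologue was low in Hanoi throughout. On 24 May the 4 Hanoi libraries stood at 213, 210.2, 158 and 116, with a mean of 174 ± 46.6 (SD, n = 4). On 13 July they stood at 108, 72.5, 74.6 and 56.8, with a mean of 77.9 ± 21.5. On 7 August they stood at 139, 342, 266 and 162, with a mean of 227 ± 94.6. August was thus the highest Hanoi date by its mean, though its libraries overlapped those of 24 May. On 10 October the libraries stood at 91.8, 98.7, 64.6 and 105, with a mean of 90.13 ± 17.9, and all 4 lay below those of 24 May and 7 August.

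In Bac Kan the gene was high at both ends of the season. On 31 May the 4 libraries stood at 868, 1971, 764 and 561, with a mean of 1041 ± 633 (SD, n = 4). The second library stood far above the other 3, and without it the mean was 731. On 29 June the libraries stood at 519, 367, 561 and 480.4, with a mean of 482 ± 83.4. All 4 lay below the lowest library of 31 May, although the highest of June and the lowest of May were nearly equal. On 26 July they stood at 339, 448, 280.1 and 278, with a mean of 336 ± 79.6, the lowest of the 7 Bac Kan dates.

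From mid-August the Bac Kan means were higher again. On 15 August the libraries stood at 406, 685, 246 and 232, with a mean of 392 ± 210.3, which was 295 without the second library. On 11 September they stood at 801, 464, 426 and 316, with a mean of 502 ± 209. These dates overlapped each other and both dates before them. On 5 October the libraries stood at 1955, 1808, 1546 and 1695, with a mean of 1751 ± 173, the tightest of the 11 groups relative to its mean. On 30 October they stood at 3554, 2566, 2449.5 and 2019.7, with a mean of 2647 ± 648, and all 4 lay above all libraries of 5 October.

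**Figure D1:**
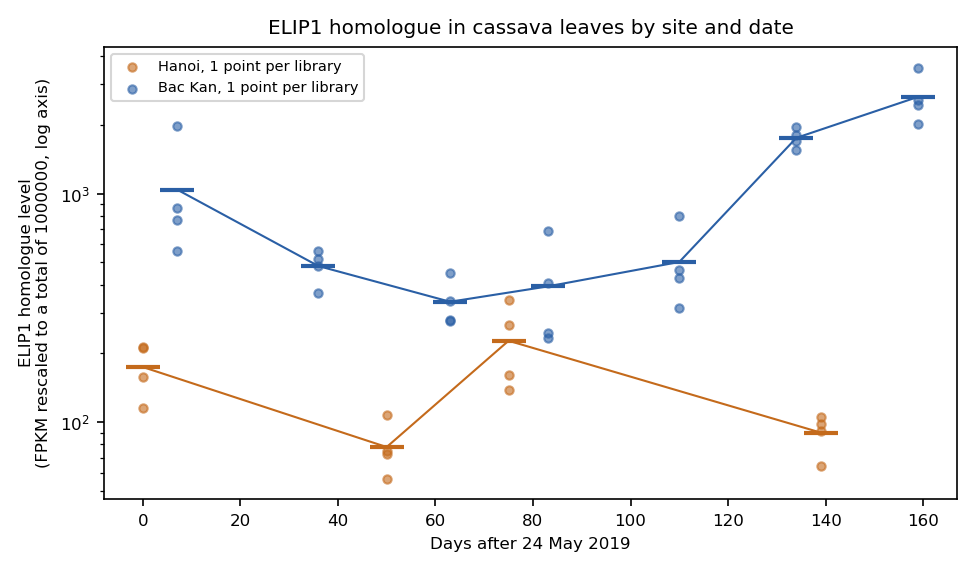
Level of the ELIP1 homologue (FPKM rescaled to a total of 1000000, log axis) in each of 44 libraries against days after 24 May 2019; points are libraries, bars are means of 4 libraries and lines join the dates of a site. Hanoi means lie between 77.9 and 227, while Bac Kan means are 1041 on 31 May, 336 on 26 July and 2647 on 30 October.

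Over all libraries the gene ran from 56.8 to 3554, a 62.6-fold range. Hanoi libraries spanned 56.8 to 342 with a median of 112, and Bac Kan libraries spanned 232 to 3554 with a median of 561. Of the 28 Bac Kan libraries, 22 lay above every Hanoi library. Counted from the most abundant gene, its rank was between 9 and 2908. The spread of its group means (5.08 on the log2 scale between lowest and highest, where the median gene spanned 1.39) was the 230th largest of 23405 genes.

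By mean level the order of the groups, from the lowest, was Hanoi 13 July, Hanoi 10 October, Hanoi 24 May, Hanoi 7 August, Bac Kan 26 July, Bac Kan 15 August, Bac Kan 29 June, Bac Kan 11 September, Bac Kan 31 May, Bac Kan 5 October and Bac Kan 30 October. All Bac Kan dates therefore stood above all Hanoi dates by their means. Libraries of neighbours in this order overlapped in 8 of 10 cases. Those that did not were Hanoi 10 October against 24 May, 1.93 times apart, and Bac Kan 5 against 30 October, 1.51 times apart. Among the rest, Hanoi 7 August and Bac Kan 26 July, where the sites meet, were 1.48 times apart with overlapping libraries.

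Each Hanoi date was set against a Bac Kan date close to it, as a description of the site difference. In late May, 7 days apart, the Bac Kan mean was 5.97 times the Hanoi mean, or 2.44 as the difference of mean log2 levels, and the libraries did not overlap. In July, 13 days apart, it was 4.32 times (2.11 on the log2 scale) with no overlap. In August, 8 days apart, it was 1.73 times (0.74 on the log2 scale), the libraries overlapped, and the log2 difference was 0.42 without the second library of Bac Kan 15 August. In October, with Bac Kan sampled 5 days before Hanoi, it was 19.4 times (4.28 on the log2 scale), and the lowest Bac Kan library was 14.7 times the highest Hanoi library.

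Ranked from the most positive, the October difference was number 41 of 23405 genes, against ranks of 248 in late May, 137 in July and 2107 in August. Within Bac Kan the mean on 29 June was 0.463 times that on 31 May, and it was 3.49 times as high on 5 October as on 11 September, both with libraries apart. Within Hanoi it was 0.447 times on 13 July relative to 24 May, 2.91 times on 7 August relative to 13 July and 0.397 times on 10 October relative to 7 August, with libraries apart in each step. From the first to the last date the level was 2.54 times as high in Bac Kan and 0.517 times in Hanoi.

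Set within its own protein family, the ELIP1 homologue was a minor member on most dates and had the highest mean of all members on Bac Kan 30 October. The PF00504 family held 25 genes, of which 24 reached a mean of 1 or more in every group, and FPKM compare genes per length. ELIP1 made up 0.192% ± 0.0603 of the family sum in Hanoi on 13 July (SD, n = 4) and 0.954% ± 0.215 on 24 May, the extremes of the 4 Hanoi dates. In Bac Kan its share was 2.68% ± 1.21 on 31 May and 1.04% ± 0.186 on 26 July. It was 8.13% ± 0.335 on 5 October and 18.8% ± 2.68 on 30 October, and 22.3% in the highest library.

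The family sum behind that share was also lower late in the season. In Bac Kan it was 37091 ± 5059 on 31 May, 21537 ± 1816 on 5 October and 13951 ± 1380 on 30 October. Of the 23 other members that reached a mean of 1, 21 had a lower mean on 30 October than on 31 May, with a median ratio of 0.345. LHCB4.2 (MANES_08G091700), a minor antenna protein of photosystem II, had the lowest ratio, 0.106. The 2 with a higher mean were LHCA5 (MANES_05G173900, ratio 1.53) and the LHCB7 homologue (MANES_15G159000, ratio 1.13). In Hanoi the same 23 genes had a median ratio of 1.32 between 10 October and 24 May, the Hanoi date with the lowest family sum. That sum was 18233 ± 2576 on 24 May, 41442 ± 6760 on 13 July, 28978 ± 1550 on 7 August and 28330 ± 4447 on 10 October. Hanoi had no date as late as 30 October.

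By mean level ELIP1 held the 18th to 21st place of the family in Hanoi. In Bac Kan it held the 11th place on 31 May, the 16th to 18th from 29 June to 11 September, the fourth on 5 October and the first on 30 October. On that last date the next member was LHCB5 (MANES_15G183900, CP26), at 2249 ± 77.7 (SD, n = 4), although ELIP1 was second in 1 of the 4 libraries. On 31 May the same gene stood at 8491 ± 705, when ELIP1 stood at 1041.

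**Figure D2:**
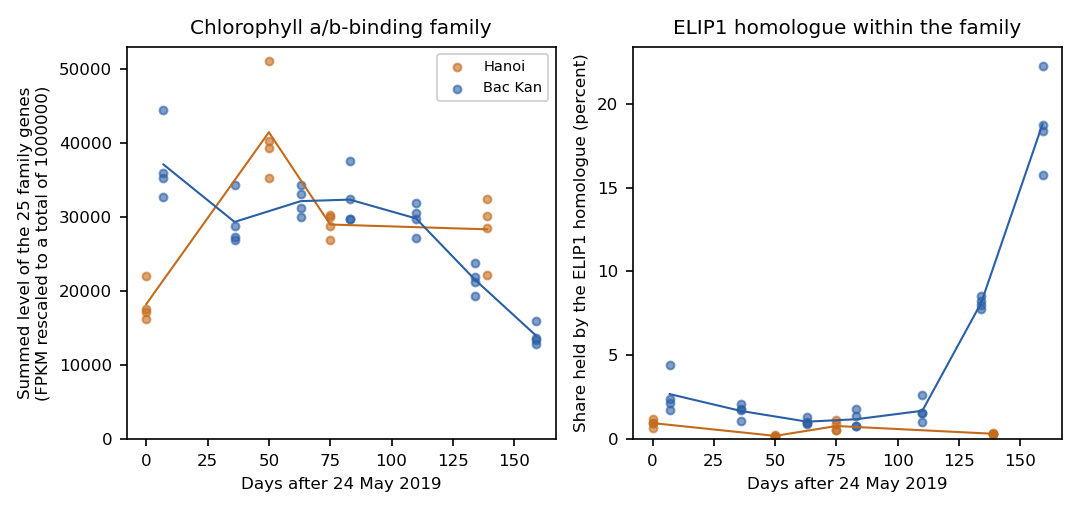
Left, summed level of the 25 chlorophyll a/b-binding family genes (rescaled FPKM); right, percent of that sum held by the ELIP1 homologue; both against days after 24 May 2019, with 1 point per library and lines through the means. In Bac Kan the sum goes from 37091 to 13951 between the first and the last date while the ELIP1 share goes from 2.68% to 18.8%.

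The genes around ELIP1 were tested as lists matched by Arabidopsis best hit, with limma over 23405 genes. These lists were chosen with earlier results of the same data known, so the tests are not independent of that choice. A call is an adjusted p under 0.05, and log2 differences are Bac Kan minus Hanoi. In late May 28.7% of the other 23404 genes passed (16.1% higher and 12.6% lower in Bac Kan), 8.83% in July (5.17% higher, 3.66% lower), 14.5% in August (6.4% higher, 8.11% lower) and 24.2% in October (10.5% higher, 13.6% lower). Of the 216 other listed genes tested, 116 passed in late May and 55 in July, then 72 in August and 115 in October. When only the 2 groups compared were fitted, over all genes 3692 in place of 6714 passed in late May and 1314 in place of 2068 in July, and of the listed genes 83, 42, 57 and 114 passed in the 4 pairs. The median difference of all genes lay between -0.06 and 0.06 (log2) in these pairs.

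The nearest relatives of ELIP1 are 1-helix and 2-helix proteins of the same extended family: SEP1 and SEP2 (stress-enhanced proteins, not the floral SEPALLATA genes), OHP1 and OHP2, which in Arabidopsis take part in assembling photosystem II, and the LIL3 proteins, which in Arabidopsis hold enzymes of chlorophyll synthesis. Of 7 relatives tested, 6 were higher in Bac Kan and 0 lower in late May, 1 and 0 in July, 4 and 0 in August, and 0 and 1 in October. The August calls of OHP1 and LIL3.2 were lost when only the 2 groups compared were fitted (adjusted p = 0.0615 and 0.0875), which leaves 2 calls. The OHP1 call was also lost without Hanoi library 3 (limma adjusted p = 0.0813), and the LIL3.2 call without Hanoi library 4 (0.0533) or Bac Kan library 2 (0.0838) or 3 (0.0553) of those dates. The late May call of OHP1 was lost with only the 2 groups compared (adjusted p = 0.205), with median-ratio scaling (0.0697), without Hanoi library 2 (0.266) or 3 (0.0821), and without Bac Kan library 1 (0.0977), 3 (0.0681) or 4 (0.061). An eighth, the LIL3.1 homologue MANES_14G041200, was listed at 0 in all libraries. The median difference of the 7 was 0.76 (log2) in late May and -0.07 in July, and 0.57 in August and -0.12 in October, while the October difference of ELIP1 was 4.28.

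SEP2 (MANES_12G142400) was the relative nearest to ELIP1 in pattern. Its libraries ran from 675 to 1664 on Bac Kan 31 May and from 177 to 388 on Hanoi 24 May, and it was higher in Bac Kan by 1.77 ± 0.25 (log2 ± SE, adjusted p = 8.55e-07). It was also higher by 1.75 ± 0.25 in July (adjusted p = 8.16e-06) and by 2.07 ± 0.25 in August (adjusted p = 1.09e-07). In October the means were 993 ± 61.4 and 712 ± 56.3 (SD, n = 4), and the difference of 0.48 ± 0.25 missed the threshold (limma adjusted p = 0.174), which it passed when only the 2 groups compared were fitted. Unlike ELIP1, SEP2 had its highest mean on 29 June, at 1829 ± 219, and not on 30 October, when it stood at 1191 ± 164.

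SEP1 (MANES_02G137400) differed in late May, with Bac Kan higher by 1.54 ± 0.28 (log2, adjusted p = 5.09e-05), and was not called in the other pairs (adjusted p = 0.194 to 0.82). OHP1 (MANES_09G093900) was the 1 relative that was lower in October, at 139 ± 18.5 in Bac Kan and 254 ± 32.3 in Hanoi (log2 -0.87 ± 0.16, adjusted p = 5.7e-05). The OHP2 genes were higher in late May, MANES_02G182800 by 1.25 ± 0.23 (adjusted p = 4.87e-05) and MANES_18G094400 by 0.76 ± 0.17 (adjusted p = 0.000532). In August MANES_18G094400 was again higher, by 0.79 ± 0.17 (adjusted p = 0.000693), and MANES_02G182800 missed the threshold (0.0843). LIL3.2 (MANES_02G045000) was higher by 0.73 ± 0.16 (adjusted p = 0.000528) in late May. The site difference changed between the 4 pairs in 6 of 7 relatives, where 38.1% of all other genes passed the same F test.

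The list of light and UV-B regulators holds HY5, CRY1 and UVR8, which act upstream of ELIP genes in Arabidopsis. It also holds other light-related genes, such as SIG5, so its counts are not counts of ELIP regulators. Of 22 tested, 9 were higher and 0 lower in Bac Kan in late May, 2 and 2 in July, 7 and 2 in August, and 2 and 2 in October. Their median difference was 0.29 (log2) in late May and 0.01 in July, and 0.28 in August and -0.02 in October.

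HY5 (MANES_16G120300), the bZIP factor on which ELIP induction depends in Arabidopsis, had its highest mean where ELIP1 did. It stood at 88.9 ± 1.05 on Bac Kan 30 October (SD, n = 4), and at 33.0 ± 11.9 to 57.4 ± 6.03 on the other Bac Kan dates. HY5 was higher in Bac Kan in July, with libraries of 50.9 to 65.3 against 10.3 to 16.1 (log2 2.01 ± 0.24, adjusted p = 3.1e-07). It was higher by 1.44 ± 0.24 in August (adjusted p = 2.84e-05) and by 0.84 ± 0.24 in October (adjusted p = 0.00819). In late May, when ELIP1 differed by 2.44, HY5 averaged 33.0 ± 11.9 in Bac Kan against 38.0 ± 7.49 in Hanoi (log2 -0.25 ± 0.24, limma adjusted p = 0.482).

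HYH (MANES_12G040300), the homologue of HY5, was higher in late May, at 65.3 ± 15.9 against 17.3 ± 14.3 (log2 2.32 ± 0.45, adjusted p = 0.000122). It was not called in the other pairs (adjusted p = 0.159 to 0.454), except in October when only the 2 groups compared were fitted. The CRY1 homologue MANES_18G067300 was higher in August by 1.04 ± 0.16 (adjusted p = 1.3e-05). That call was lost when only the most abundant transcript was used (log2 0.99, limma adjusted p = 0.0874). This homologue was also higher in late May by 0.50 ± 0.16 (adjusted p = 0.0188). The late May call was lost with the most abundant transcript alone (0.795), with only the 2 groups compared (0.156) and without some single libraries. Another CRY1 homologue, MANES_02G152400, was higher in late May by 0.75 ± 0.18 (adjusted p = 0.00175), a call lost when only the 2 groups compared were fitted. UVR8 (MANES_13G078300) was called in no pair, with adjusted p from 0.166 in October to 0.915 in July. It was called in October when only the 2 groups compared were fitted (log2 0.40, limma adjusted p = 0.0408). COP1 (MANES_12G068900) is the ubiquitin ligase that removes HY5 in the dark. It was higher in August by 0.86 ± 0.14 (adjusted p = 2.55e-05), a call lost with the most abundant transcript alone (log2 1.14, limma adjusted p = 0.0617). It was also higher in July by 0.50 ± 0.14 (adjusted p = 0.0192) and in late May by 0.39 ± 0.14 (0.0334). Both of these calls were lost with only the 2 groups compared (0.0718 and 0.25) and without some single libraries. The July call was also lost with the most abundant transcript alone (log2 0.0066). In October COP1 averaged 101 ± 15.998 in Bac Kan against 99.6 ± 6.75 in Hanoi. The SIG5 homologue MANES_14G018500, a light-induced sigma factor of chloroplast transcription, stood at 475 ± 114 against 64.3 ± 33.1 in August (log2 2.98 ± 0.28, adjusted p = 7.07e-10).

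**Figure D3:**
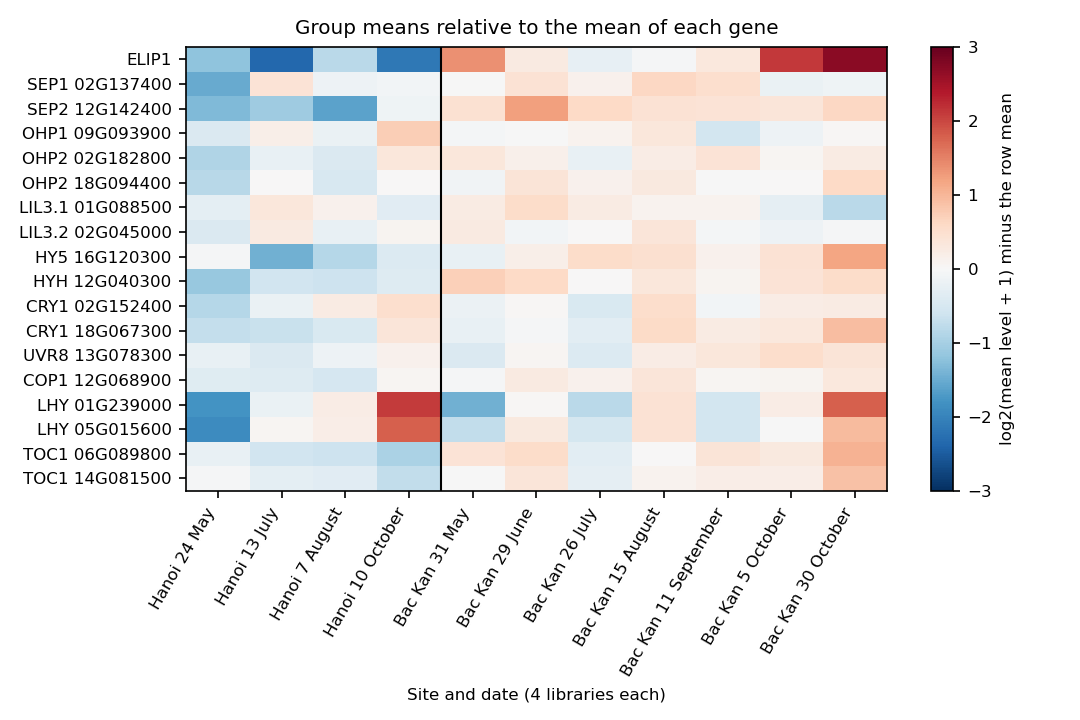
Mean level of ELIP1, its relatives, light regulators and the clock genes LHY and TOC1 in the 11 groups, as log2(mean level + 1) minus the mean of the gene's row; red is above and blue below that mean, and the line separates Hanoi (left) from Bac Kan. HY5 has its highest mean, 88.9, on Bac Kan 30 October as ELIP1 does, while SEP2 has its highest, 1829, on Bac Kan 29 June.

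Flavonoid genes make sunscreen pigments and are also targets of HY5 in Arabidopsis. Of 24 tested, 12 were higher and 1 lower in late May, 1 and 2 in July, 4 and 2 in August, and 11 and 3 in October, with medians of 1.12, 0.30, 0.27 and 0.70 (log2). In late May chalcone synthase (CHS, MANES_11G075100), the entry enzyme, averaged 165 ± 40.9 in Bac Kan against 18.8 ± 5.6 in Hanoi (log2 3.08 ± 0.26, adjusted p = 2.58e-11). In October flavanone 3-hydroxylase (F3H, MANES_02G104700) stood at 113 ± 14.1 and 3.502 ± 1.07 (log2 4.68 ± 0.38, adjusted p = 5.67e-12). LDOX (MANES_01G070200), an enzyme of anthocyanin synthesis, stood at 46.1 ± 5.8 in Bac Kan and between 0 and 2.89 in the 4 Hanoi libraries (log2 4.72 ± 0.45, adjusted p = 2.04e-10). Lower in Bac Kan were the MYB4 homologues MANES_02G074300 and MANES_13G075100 in July (log2 -1.30 and -1.29, adjusted p = 0.0121 and 0.028). In August MYB111 (MANES_03G201700) and F3'H (MANES_11G019200) were lower (log2 -2.28 and -0.73, adjusted p = 0.00994 and 0.0246). Each of these lower calls was lost without some single library.

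Carotenoid and xanthophyll-cycle genes make pigments that ELIPs are thought to bind. Of 16 tested, 8 were higher and 1 lower in late May, 2 and 0 in July, 9 and 0 in August, and 9 and 0 in October, with medians of 0.59, -0.12, 0.51 and 0.63 (log2). Zeaxanthin epoxidase (ZEP, MANES_13G124100), which turns zeaxanthin back into violaxanthin, stood at 1154 ± 60.8 on Bac Kan 5 October and 416 ± 41.2 on Hanoi 10 October (log2 1.48 ± 0.13, adjusted p = 4.47e-11). Phytoene desaturase (PDS, MANES_11G097600) stood at 70.0 ± 8.93 and 12.1 ± 3.69 on these dates (log2 2.47 ± 0.20, adjusted p = 2.07e-12). The enzyme of the opposite reaction, violaxanthin de-epoxidase (VDE, MANES_09G144600), was higher in July by 0.47 ± 0.11 (adjusted p = 0.00623).

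Genes of photo-oxidative protection and photosystem repair that passed the test were mostly higher in Bac Kan in each pair but July. Of 36 tested, 15 were higher and 4 lower in late May, 5 and 8 in July, 13 and 1 in August, and 14 and 3 in October, with medians of 0.40, -0.03, 0.30 and 0.18 (log2). The FTSH5 homologue MANES_18G006400, a thylakoid protease that removes damaged photosystem II protein, stood at 1493 ± 75.5 and 643 ± 79.7 in late May (log2 1.22 ± 0.11, adjusted p = 4.4e-11). Cytosolic ascorbate peroxidase (APX1, MANES_11G139700) stood at 93.1 ± 11.6 and 13.7 ± 2.6 in October (log2 2.69 ± 0.16, adjusted p = 1.28e-14). The thylakoid kinase STN7 (MANES_14G097700) stood at 323 ± 17.9 and 126 ± 9.04 (log2 1.35 ± 0.12, adjusted p = 8.84e-11). The PRXQ homologue (MANES_16G091900) was lower in Bac Kan in July, at 326 ± 28.3 against 709 ± 131 (log2 -1.11 ± 0.16, adjusted p = 9.61e-06).

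Antenna genes were mostly higher in Bac Kan in late May, and more were lower than higher in July and October. Of 21 antenna genes tested, 19 were higher and 1 lower in Bac Kan in late May, 2 and 6 in July, 5 and 0 in August, and 3 and 7 in October, with medians of 0.91, -0.11, 0.25 and -0.13 (log2). LHCA3 (MANES_13G058600) stood at 5015 ± 863 and 1891 ± 456 in late May (log2 1.42 ± 0.16, adjusted p = 5.43e-09). LHCB2.1 (MANES_01G175600), part of the mobile trimers of photosystem II, averaged 494 ± 102 in Bac Kan against 1866 ± 443 in Hanoi in October (log2 -1.90 ± 0.25, adjusted p = 1.7e-07). LHCB genes have close copies, here 2 LHCB2.1 and 2 LHCB1.4 homologues, and how reads shared by copies were divided is not given in the sources used here.

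Of 17 genes of chlorophyll synthesis tested, 9 were higher and 1 lower in late May, 1 and 0 in July, 6 and 2 in August, and 3 and 8 in October, with medians of 0.50, -0.08, 0.13 and -0.31 (log2). CHLM (MANES_06G126400), a methyltransferase of the magnesium branch, was higher in late May by 1.69 ± 0.18 (adjusted p = 5.43e-09) and lower in October by -1.09 ± 0.18 (adjusted p = 1.98e-05). CHLG (MANES_09G106900), chlorophyll synthase, was higher in October by 1.67 ± 0.13 (adjusted p = 3.36e-12). Of 11 genes of chlorophyll breakdown and senescence, 5 were higher and 3 lower in late May, 2 and 2 in July, 3 and 0 in August, and 4 and 2 in October, with medians of 0.57, 0.27, 0.51 and -0.13 (log2). In October NYE1 (MANES_02G030000), which takes magnesium from chlorophyll, stood at 81.4 ± 13.0 and 24.3 ± 1.46 (log2 1.69 ± 0.26, adjusted p = 4.38e-06).

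**Figure D4:**
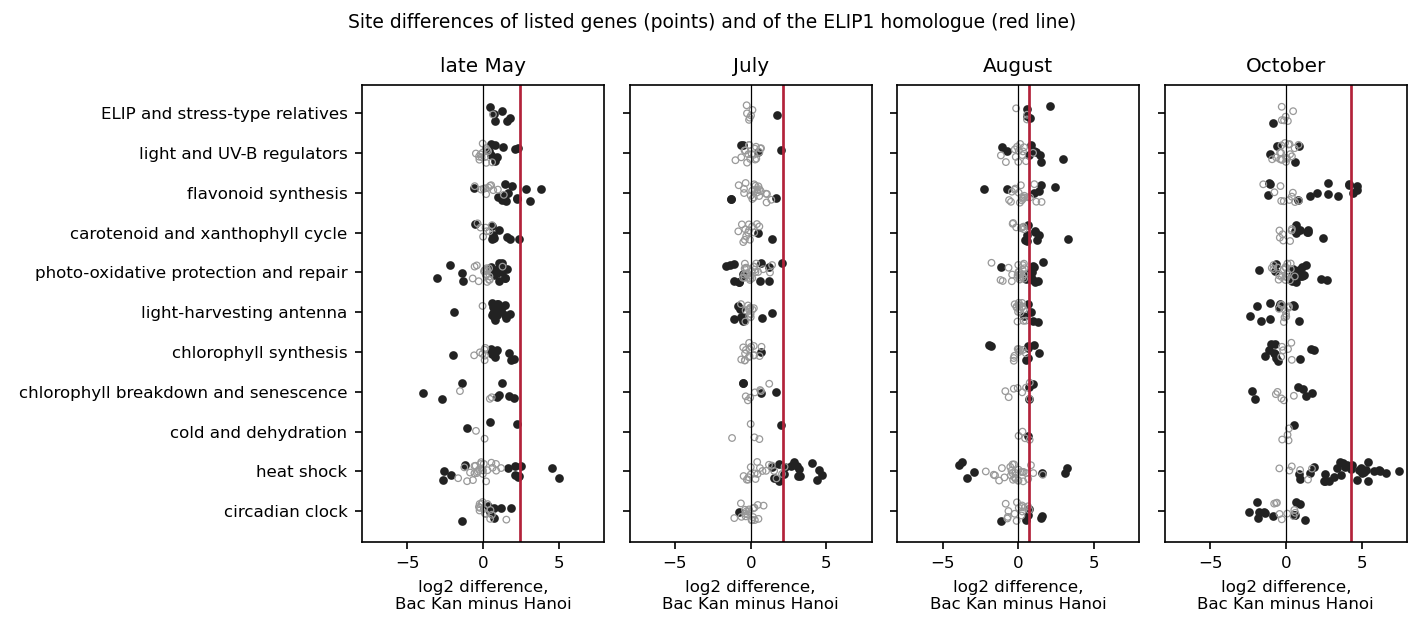
Site difference (log2, Bac Kan minus Hanoi) of each listed gene tested in the 4 date pairs; filled points passed limma's adjusted p under 0.05, open points did not, and the red line is the ELIP1 homologue, at 2.44, 2.11, 0.74 and 4.28. In October most heat shock genes lie well above 0, while antenna genes lie on both sides of it.

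Many heat shock genes had higher levels at Bac Kan in both July and October. Of 36 tested, 8 were higher and 4 lower in late May, 17 and 0 in July, 3 and 4 in August, and 30 and 0 in October, with medians of -0.05, 1.63, -0.21 and 3.73 (log2). The chaperone HSP90.1 (MANES_14G022300) stood at 556 ± 306 and 5.23 ± 1.86 in October (log2 6.25 ± 0.41, adjusted p = 3.36e-14), and the disaggregase HSP101 (MANES_06G085600) at 371 ± 261 and 8.99 ± 1.74 (log2 4.99 ± 0.34, adjusted p = 7.61e-14). The summed level of the 44 listed genes was 5915 ± 3003 on Bac Kan 5 October, with libraries from 2342 to 9503, while the 4 ELIP1 values of that date lay within 1546 to 1955. On 30 October, when ELIP1 was highest, the heat shock sum was 2023 ± 201. What part heat-related conditions had in the ELIP1 levels was not tested.

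Of the 5 cold and dehydration genes tested, 2 were higher and 1 lower in late May, and 1 was higher and 0 lower in each of July, August and October, with medians of 0.09, 0.25, 0.45 and 0.18 (log2). Of all other genes 28.7%, 8.83%, 14.5% and 24.2% passed in these pairs, so 1 call among 5 genes says little about the list. The dehydrin COR47 homologue (MANES_05G140400) was lower in Bac Kan in late May, at 797 ± 178 against 1662 ± 120.2 (log2 -1.08 ± 0.16, adjusted p = 1.37e-06), and higher in July (log2 2.03 ± 0.16, adjusted p = 4.29e-11).

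ELIP genes cycle over the day in other plants, and the labels give no hour of sampling. Of 21 clock genes tested, 6 were higher and 1 lower in late May, 0 and 1 in July, 5 and 1 in August, and 5 and 7 in October, with medians of 0.29, -0.11, 0.22 and -0.42 (log2). In October the morning-expressed LHY homologue MANES_05G015600 averaged 76.1 ± 13.9 in Bac Kan against 267 ± 15.8 in Hanoi (log2 -1.81 ± 0.24, adjusted p = 2.16e-07), and the other, MANES_01G239000, averaged 24.99 ± 5.74 against 94.6 ± 12.6 (log2 -1.89 ± 0.28, adjusted p = 1.79e-06). The evening-expressed TOC1 homologues were higher, MANES_06G089800 by 1.25 ± 0.27 (adjusted p = 0.000602) and MANES_14G081500 by 0.95 ± 0.24 (adjusted p = 0.00305). In late May LHY MANES_05G015600 was higher in Bac Kan, at 45.3 against 20.1 (log2 1.202 ± 0.238, limma adjusted p = 0.000154). LHY MANES_01G239000 and TOC1 MANES_14G081500 were not called in that pair (adjusted p = 0.204 and 0.778). TOC1 MANES_06G089800 was higher by 0.748 ± 0.273 (adjusted p = 0.0362). That call was lost when only the 2 groups compared were fitted (0.228). The part of the sampling hour in the ELIP1 site differences was not tested in any pair.

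Markers of other tissues had low levels in both October groups. Floral organ markers had sums between 12.4 and 34.5 in Bac Kan, and between 19.8 and 29.4 in Hanoi, those of dividing tissue between 3.47 and 7.46 and between 5.97 and 18.3, and those of the secondary wall between 1.17 and 4.17 and between 0.356 and 2.41. Leaf photosynthesis markers had sums between 9289 and 12615 in Bac Kan, and between 13885 and 15170 in Hanoi. Of these 7 leaf genes, 3 were higher and 0 lower in late May, 0 and 1 in July, 3 and 0 in August, and 0 and 2 in October. In whole leaves, fewer cells of a type and less RNA per cell cannot be told apart.

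Over dates, 179 of the 216 other listed genes changed within Bac Kan and 159 within Hanoi, where the shares among all other genes were 44.7% and 50.4%. The site difference changed between pairs for 151 of the 216, where 38.1% of all other genes passed the same test. All 7 relatives were tested here too, and 4 changed within Bac Kan and 6 within Hanoi.

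The likeness of each gene to ELIP1 was taken as Pearson's r of log2 levels over the 11 group means, which share libraries and scaling, and is a description. Of 23404 genes, 24 had r of 0.9 or more and 3 had -0.9 or less. Highest was MANES_03G185300, which encodes a Serinc-domain protein, with r = 0.95. Its means ran from 30.8 on Hanoi 13 July to 57.7 on Bac Kan 30 October, a far smaller range than that of ELIP1. It was followed by a leucine-rich repeat kinase (MANES_01G046700, r = 0.94), the co-repressor TPR4 (MANES_06G056000, r = 0.94), a pentatricopeptide repeat protein (MANES_10G117700, r = 0.94), the nuclear factor Y subunit NF-YC11 (MANES_01G176600, r = 0.93) and a BAH-domain protein (MANES_02G022300, r = 0.93).

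The bZIP factor GBF3 (MANES_01G249900, r = 0.93) came next, with means from 2.07 on Hanoi 13 July to 34.6 on Bac Kan 30 October. The remaining genes named by the rule were MANES_01G056600 (r = 0.93), a remorin (MANES_08G049300, r = 0.92) and TRFL6 (MANES_04G143700, r = 0.92). The most opposite patterns were those of MANES_06G015300, a polyketide cyclase-like protein (r = -0.93), a CCCH zinc finger gene (MANES_16G076700, r = -0.90), the auxin response factor ARF2 (MANES_08G102200, r = -0.90), MANES_11G015500 (r = -0.90) and the YABBY gene FIL (MANES_05G048000, r = -0.89). MANES_06G015300 had means of 141 on Hanoi 13 July and 6.02 on Bac Kan 30 October. These r values depend on the processing. Over the settings tried, r ran from -0.91 to -0.58 for ARF2, whose means lay between 0.825 and 5.65. It ran from 0.78 to 0.96 for MANES_01G046700 and from 0.81 to 0.92 for TRFL6. The other genes named here stayed at 0.90 or more, or at -0.85 or less.

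Among the lists, heat shock genes had a median r of 0.51, with 35 of 36 above 0, carotenoid genes 0.53, with 14 of 16 above 0, and flavonoid genes 0.44, with 17 of 24 above 0. Cold and dehydration genes had a median of 0.41 (4 of 5 above 0), light and UV-B regulators 0.20 (16 of 22), clock genes 0.16 (14 of 21), protection and repair genes 0.15 (22 of 36), chlorophyll breakdown genes 0.14 (6 of 11) and the relatives 0.04 (4 of 7). Antenna genes had a median r of -0.49, with 17 of 21 below 0, and chlorophyll synthesis genes -0.28, with 12 of 17 below 0. Over all 23404 other genes tested the median was 0.10, with 13707 above 0, so the list counts are to be read against that share. The TOC1 homologues had r of 0.89 (MANES_06G089800, the highest of the clock list) and 0.83 (MANES_14G081500), and the LHY homologues had r of 0.08 (MANES_01G239000) and -0.01 (MANES_05G015600). HY5 had r = 0.74, the highest of the regulator list, HYH 0.72, COP1 0.56 and UVR8 0.56. The CRY1 homologues had r of 0.58 (MANES_18G067300) and 0.18 (MANES_02G152400). Of the relatives, SEP2 had r = 0.61, the OHP2 genes 0.45 (MANES_18G094400) and 0.43 (MANES_02G182800), SEP1 0.04, LIL3.2 -0.08, OHP1 -0.29 and the tested LIL3.1 homologue (MANES_01G088500) -0.32.

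**Figure D5:**
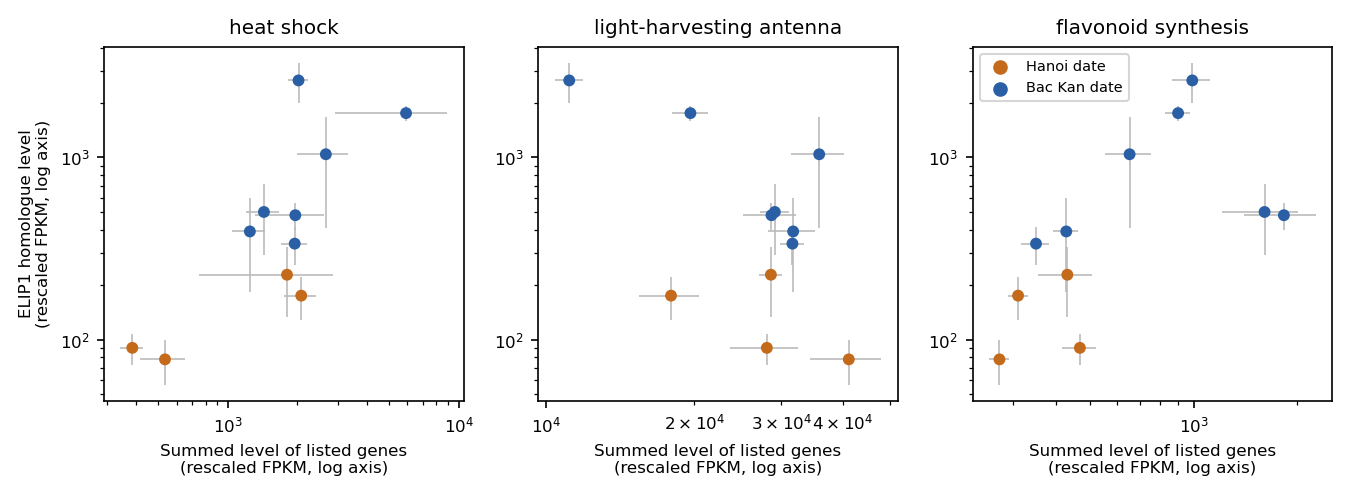
Mean ELIP1 level against the summed level of the listed heat shock, antenna and flavonoid genes in the 11 groups (rescaled FPKM, log axes); points are means of 4 libraries and bars are SD. Bac Kan 30 October has the highest ELIP1 mean, 2647, with an antenna sum of 11145 and a heat shock sum of 2023.

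Within dates, libraries also differed, and likeness was taken again over the 44 deviations from the group means. The highest were a haloacid dehalogenase-like gene (MANES_08G058400, r = 0.77), an NAD(P)-binding protein (MANES_09G092700, r = 0.75) and MANES_14G156600 (r = 0.71). Then came a cytochrome c1 gene (MANES_17G106300, r = 0.69), a GroES-like gene (MANES_05G058400, r = 0.67), MAP1A (MANES_01G267700, r = 0.67), MANES_01G055200 (r = 0.67) and SEP1 (MANES_02G137400, r = 0.66). SEP1 thus went with ELIP1 between libraries of a date and little over the group means, where its r was 0.04. SEP2 had r = 0.50 over deviations and HY5 0.03.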

How the data were processed

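The authors aligned reads with TopHat2, per the submitters' processing notes (version, quantifier, genome build and annotation not given in the sources used here). They deposited FPKM for 41491 transcripts in 11 tables, 1 per group, from cDNA libraries amplified by 14 PCR cycles. The authors' FPKM totals ran from 664145 to 804362 per library. FPKM were summed per gene, rescaled to 1000000 per library and analysed as log2(x + 1). Genes at 1 or more in at least 4 libraries were tested (23405).

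A limma fit (version 3.58.1, R 4.3.3) over all 11 groups, with a variance trend, was two-sided, with Benjamini-Hochberg adjustment over all genes. It was tested on simulated data. Python 3.11.15 did the rest.

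The gene and the lists were chosen with earlier results of these data known. Named were ELIP1's relatives, homologues of HY5, HYH, CRY1, UVR8, COP1, LHY and TOC1, and, for each other list and pair, up to 3 called genes with the smallest adjusted p, libraries apart and a mean of 5 or more. From these the text takes a part. By likeness, 10 genes with the highest, 5 with the lowest and 8 with the highest r over deviations were named, each with a best match.

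Columns name a group but no replicate, so library numbers are column places. The 30 October table held 1 further column, a copy of one in the 5 October table, which was not used. Alternatives were other scalings, pseudocounts, no filter, the most abundant transcript, only the groups compared and each library left out.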

Additional observations from a re-analysis of the deposited data

Results flagged for a closer look

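Among the named genes, 198 groups of 4 libraries were checked for a library far from the others by Dixon's ratio, the gap to the nearest library divided by the range, set against its critical value. The check marked 16, where chance marks about 1 in 20, and the ELIP1 homologue was in none (its ratio on Bac Kan 31 May was 0.783). Single low libraries were seen for SEP1 on Hanoi 10 October (ratio 0.868, library at 102), for OHP1 on Hanoi 13 July (0.894) and Bac Kan 30 October (0.964), for HYH on Hanoi 7 August (0.872) and Bac Kan 29 June (0.862), for CRY1 MANES_18G067300 on Bac Kan 30 October (0.852), for COP1 on Bac Kan 29 June (0.953) and for TOC1 MANES_06G089800 on Bac Kan 11 September (0.867).

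Single high libraries were seen for SEP1 on Bac Kan 30 October (ratio 0.924, library at 212), for OHP2 MANES_02G182800 on Bac Kan 29 June (0.856), for HY5 on Bac Kan 15 August (0.932), for CRY1 MANES_18G067300 on Bac Kan 26 July (0.856), for LHY MANES_01G239000 on Bac Kan 30 October (0.901) and MANES_05G015600 on Bac Kan 26 July (0.985), and for TOC1 MANES_14G081500 on Hanoi 10 October (0.856) and Bac Kan 5 October (0.864).

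The site difference changed between the 4 date pairs in 12 of the 17 relatives, regulators and clock genes tested (limma F test, adjusted over all genes), where 38.1% of all other genes passed the same test. Among relatives these were SEP1 (adjusted p = 0.00111), SEP2 (0.00181), OHP1 (7.84e-06), OHP2 MANES_02G182800 (0.00103) and MANES_18G094400 (0.00571), and LIL3.2 (0.00028). Among regulators they were HY5 (adjusted p = 1e-05), CRY1 MANES_02G152400 (0.00341) and MANES_18G067300 (0.00235), and COP1 (0.00723). Both LHY homologues were among them, MANES_01G239000 (adjusted p = 2.24e-05) and MANES_05G015600 (3.54e-08).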

How the results depend on the processing

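No paired analysis was possible because the columns of the tables carry no replicate number. The 4 ELIP1 site differences kept their direction under other scalings, pseudocounts and medians. With 1 library left out at a time they lay between 2.08 and 2.68 (log2) in late May, 1.96 and 2.27 in July, 0.42 and 0.97 in August, and 4.13 and 4.37 in October. In the same way the counts of listed genes called lay between 99 and 117 in late May, 38 and 57 in July, 61 and 75 in August, 103 and 116 in October, 167 and 185 over Bac Kan dates, 153 and 160 over Hanoi dates, and 144 and 155 for the change between pairs. The number of genes with r of 0.9 or more, 24, became 10 with median-ratio scaling, 42 with Spearman's rho and 50 without Hanoi 24 May, and the cause was not tested. Fitting only the groups compared called 83 listed genes in late May in place of 116, 42 in July in place of 55, 57 in August in place of 72 and 114 in October in place of 115, and over all genes 3692 in late May in place of 6714 and 1314 in July in place of 2068. Of 124 calls of named genes 0 reversed and 24 were lost under at least 1 alternative. A further 5 differences of named genes that had missed the threshold passed it under at least 1. Fragment counts could only be inferred, and they bound counting error alone.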
